A study of Canis lupus familiaris with 7 samples.

Results

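The expression profile of dog chromosome 31 was examined in 7 primary canine osteosarcomas, bone cancers that arise from bone-forming cells. The members were probe sites on chromosome 31 of the canFam2 build, chosen by detection: a site was kept where its spot was marked well above background on 3 or more of the 7 arrays. Of 412 chromosome 31 sites, 307 met this rule, out of 32309 kept among all 43603 probes of the array. The same selection looked at each tumour's deviation from the probe median in 5 Mb windows, so those deviations are selected on measured values and are described here with no test. Of the 105 sites left out, 68 were above background on no array, 22 on 1 array and 15 on 2 arrays.

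Total RNA was labelled with Cy3 and hybridised to 1-colour Agilent canine arrays, 1 array per tumour. The tumours fell into 4 with a deletion of *DLG2*, a scaffold protein gene on chromosome 21, and 3 that were *DLG2* wild type. The labels give genotype but not whether 1 or both copies were lost. Deleted tumour 1 came from a German Shepherd/Collie mixed breed of 8 years, deleted tumour 2 from a Rottweiler mixed breed of 9 years, deleted tumour 3 from a Greyhound of 6 years and deleted tumour 4 from a Great Pyrenees of 7 years. Wild-type tumour 1 came from a Boxer of 12 years, wild-type tumour 2 from a Labrador Retriever mixed breed of 10 years and wild-type tumour 3 from a Bull Mastiff of 8 years. Deleted tumours 1 and 3 and wild-type tumour 3 carried the sex label MC and the other 4 tumours the label FS. The dogs were clinic patients, so every group mixes breeds, ages and sexes, and the number of arrays limits the precision. Ages ran from 6 to 9 years in the deleted group and from 8 to 12 years in the wild-type group. Age and genotype thus cannot be fully told apart, and age was not tried as a term.

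Dog chromosome 31 carries, over most of its length, the genes of human chromosome 21, and near its start a block of genes found on human chromosome 3. Its genes include the receptor chains for type I and type II interferon, the antiviral *MX* genes, the transcription factors *RUNX1*, *ERG* and *ETS2*, and the collagen genes *COL6A1* and *COL18A1*. Gain of the whole chromosome is a recurrent event in canine osteosarcoma. DNA copy number of these tumours was not analysed here, and its part in the values below was not tested.

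Across all probes, between 30280 and 34538 probes were above background per array and no spot was saturated. Wild-type tumours 1 and 2 stood closest together, with a Pearson correlation of 0.987 (32231 probes), where no other pair of tumours exceeded 0.966 or fell under 0.935. Of 8 osteoblast genes, 5 had a kept probe, and *COL1A1*, the main bone collagen, lay between 14.08 and 15.95 (log2 intensity) in the 7 tumours. Deleted tumour 2 had the lowest osteoblast list, with a median deviation of -1.33, and the highest cartilage list, with 0.99. In bulk tissue, fewer cells of a type and less RNA per cell cannot be told apart.

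Each value rests on a designed 60-base probe, and 9 probes of genes that the results below turn on are shown. For *MX1*, *MX2*, *COL6A1*, *GBE1* and *CXADR* the probe shown is dimmer than the brightest probe, whose tumour values are quoted below. Capitals mark the whole codons of the reading frame where a probe had only 1 frame with no stop codon, which held for 138 of the 307 members (45.0%) and 44.6% of all kept probes. Probes in lower case throughout had 2 such frames. Coordinates are those of the files on canFam2, with the strand read from their order.
MX1, chr31:38252743-38252802, plus strand: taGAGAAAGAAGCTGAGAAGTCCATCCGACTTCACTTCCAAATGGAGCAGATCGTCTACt
MX2, chr31:38208639-38208698, plus strand: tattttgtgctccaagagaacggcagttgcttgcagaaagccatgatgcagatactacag
COL6A1, chr31:41619027-41619086, plus strand: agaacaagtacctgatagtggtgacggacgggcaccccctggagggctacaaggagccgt
BACE2, chr31:38086259-38086318, plus strand: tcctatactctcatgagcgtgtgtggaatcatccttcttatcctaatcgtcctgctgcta
RUNX1, chr31:32372614-32372673, minus strand: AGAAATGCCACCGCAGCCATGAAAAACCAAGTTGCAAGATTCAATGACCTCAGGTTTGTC
BRWD1, chr31:36346947-36347275, minus strand: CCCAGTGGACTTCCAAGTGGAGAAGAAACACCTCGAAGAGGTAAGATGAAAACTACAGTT
CBR3, chr31:33541860-33541919, plus strand: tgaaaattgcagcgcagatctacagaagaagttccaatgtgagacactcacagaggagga
GBE1, chr31:9003695-9012392, plus strand: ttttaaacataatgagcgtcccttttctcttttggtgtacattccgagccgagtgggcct
CXADR, chr31:17069753-17069812, plus strand: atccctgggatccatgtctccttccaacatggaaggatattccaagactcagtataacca
The *MX1* and *MX2* probes are shown because the genes are close relatives that lie side by side. Between the 3 kept *MX1* probes and the 2 kept *MX2* probes the longest shared run was 6 bases. The coordinates of the *BRWD1* and *GBE1* probes span more bases than the probe is long. Among all 307 members, 25 spanned more than 1 kb on the genome. Which sites are exonic, intronic or untranslated was not analysed here.

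The design of the members was set beside that of all kept probes. Their median GC content was 43.3% against 45.0% over all kept probes, and their median log2 intensity was 7.92 against 7.83. Of the 307 members, 264 (86.0%) were above background on all 7 arrays, against 84.9% of all kept probes. The hexamer AATAAA, which marks many mRNA 3′ ends, was searched on the probe strand only and stood in 27 members (8.79%) and in 9.37% of all kept probes. At the edge of the rule, the 9 members detected on 3 arrays had mean log2 intensities between 6.51 and 6.64, and the 15 detected on 2 arrays, left out, between 6.50 and 6.65. Of the 307 members, 200 carried a gene symbol, naming 118 genes, and 107 had none.

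Overlapping members gave a measure of how well a value repeats within an array. In 7 genes, 19 pairs of members shared a run of 15 to 58 identical bases. Their deviations differed by a median of 0.01 to 0.20 on the log2 scale, with 0.08 as the middle pair, and by 0.72 at most in a single tumour. The order of the shared run matched the strand in 18 of the 19 pairs.

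The most visible feature of the chromosome was 1 tumour. In deleted tumour 2 the members had a median deviation of 0.20 from the probe median of the 7 tumours, with quartiles of 0.01 and 0.47, where the median of all kept probes was 0. Of the members, 75.9% lay above the probe median in that tumour, against 45.1% of all kept probes, and 129 of 307 (42.0%) were highest there, against 16.8% of all kept probes. Deleted tumours 3 and 4 had median deviations of -0.03 and -0.08, and the other 4 tumours 0. A median of 0 can hide a shift. Wild-type tumour 3 had 49.5% of members below the probe median and 34.5% above it, against 40.7% and 46.0% of all kept probes. With 1 probe per gene, wild-type tumour 3 had a median of -0.02 and deleted tumour 3 of 0. Deleted tumour 4 was the tumour in which most members were lowest, with 91 (29.6%), against 18.8% of all kept probes.

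Set beside the other chromosomes, chromosome 31 ranked 2 of 39 in deleted tumour 2, after chromosome 13 with 0.23. The next chromosome there, chromosome 21, had a median deviation of 0.10. In deleted tumours 3 and 4 chromosome 31 ranked 34 and 36 of 39. In the other tumours at least 8 chromosomes lay above it and at least 8 below. Chromosome 13 in deleted tumour 2 also had 44.6% of its 581 kept probes highest of the 7 tumours. Chromosome 13 was lowest of the 39 in deleted tumour 3, at -0.07, where chromosome 31 stood at -0.03.

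**Figure D1:**
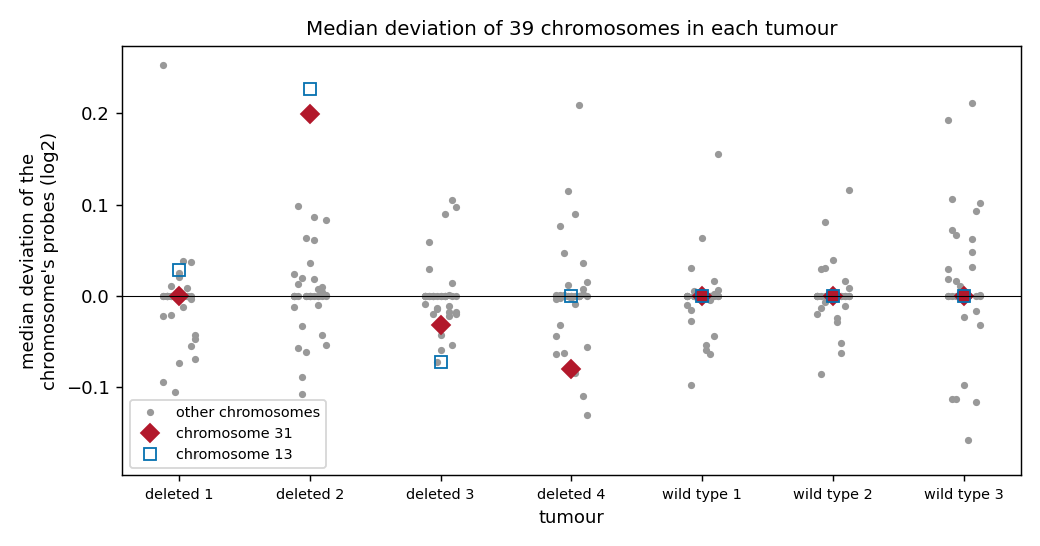
Median deviation from the probe median of the 7 tumours (log2, vertical axis) for each of 39 chromosomes in each tumour (horizontal axis), with chromosome 31 as red diamonds, chromosome 13 as open blue squares and the other chromosomes as grey points. In deleted tumour 2 chromosome 31 (0.20) and chromosome 13 (0.23) stand apart above the others, and chromosome 31 lies at -0.08 in deleted tumour 4.

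The elevation in deleted tumour 2 was spread over the chromosome but not even. In windows of 5 Mb its median deviation was 0.35 from 0 to 5 Mb (10 probes), 0.31 from 5 to 10 Mb (8 probes) and 0.30 from 20 to 25 Mb (17 probes). It was 0.28 from 30 to 35 Mb (98 probes), and 0.17 both from 35 to 40 Mb (61 probes) and from 40 to 45 Mb (49 probes). It was 0.01 from 10 to 15 Mb (16 probes), 0 from 15 to 20 Mb (19 probes) and 0.04 from 25 to 30 Mb (29 probes). The last of these depended on the scaling, and became 0.27 with processed intensity and quantile normalization, 0.26 with processed intensity and 75th percentile scaling and 0.18 with normexp and 75th percentile scaling. Deleted tumour 2 was thus the highest of the 7 tumours in 5 of the 9 windows, all but 1 of the windows with a deviation over 0.1 in that tumour. From 20 to 25 Mb wild-type tumour 1 was as high, at 0.30.

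The window from 15 to 20 Mb held no member that was highest in deleted tumour 2. From 30 to 35 Mb, 49 of 98 members were highest there. Among 486 windows of the genome with 8 or more kept probes, 5 lay above the 0 to 5 Mb window of chromosome 31 in deleted tumour 2, and 13 above the 30 to 35 Mb window. The 15 to 20 Mb window sat in the middle of that range, with 180 windows above it.

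**Figure D2:**
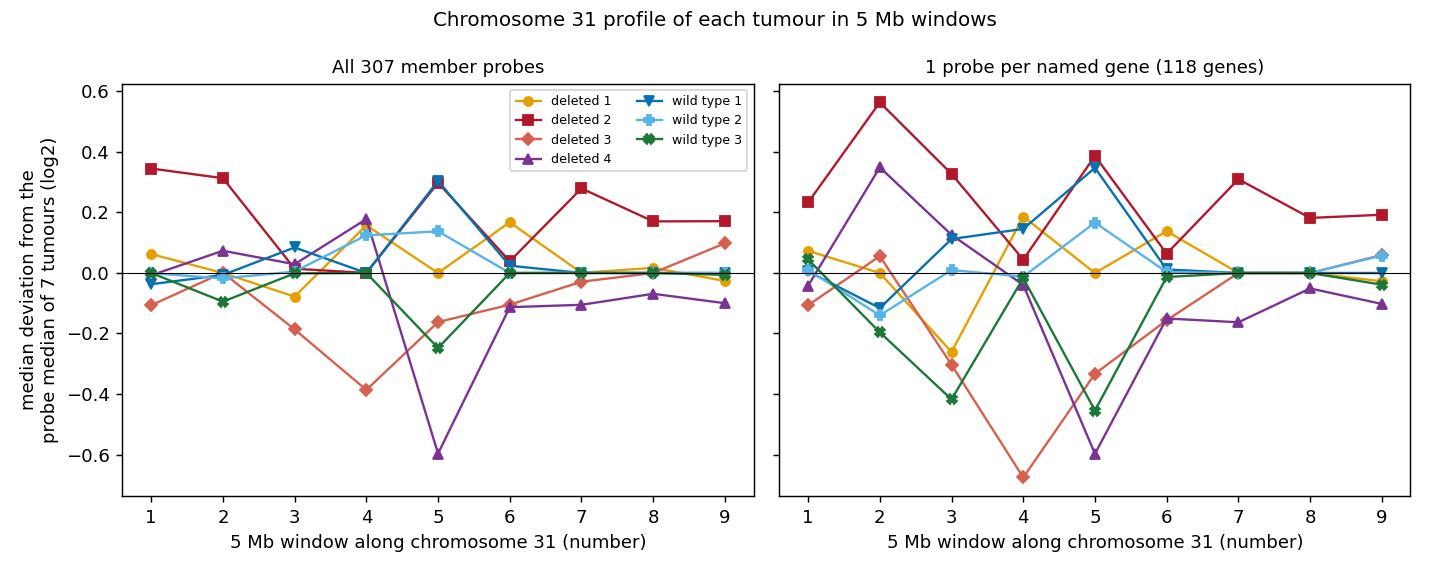
Median deviation from the probe median of the 7 tumours (log2, vertical axis) in each 5 Mb window of chromosome 31 (window number from the start, horizontal axis), with 1 line per tumour, over all 307 member probes (left) and over 1 probe for each of 118 named genes (right). Deleted tumour 2 runs above 0 at both ends, and deleted tumours 3 and 4 reach -0.39 in the fourth and -0.60 in the fifth window of the left panel.

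Other tumours departed from 0 in single windows. Deleted tumour 3 reached -0.39 from 15 to 20 Mb, and deleted tumour 4 reached -0.60 from 20 to 25 Mb, where wild-type tumour 3 stood at -0.25. The second of these windows holds 6 named genes, with *JAM2*, a junction adhesion protein, giving 5 of the 17 probes. With 1 probe per gene, deleted tumour 4 had a median of -0.60, deleted tumour 3 of -0.33 and wild-type tumour 3 of -0.45, and all 6 genes lay below the probe median in wild-type tumour 3 and above it in wild-type tumour 1. By the same count, the window from 10 to 15 Mb gave 0.33 in deleted tumour 2, with 4 of 5 genes above the probe median.

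The values were also set beside base composition. The members with low, middle and high GC content (3 bins of all kept probes) had median deviations of 0.24, 0.22 and 0.16 in deleted tumour 2, where all kept probes in those bins had -0.01, 0 and 0.03. In deleted tumour 3 the members had -0.19, -0.01 and 0 in those bins, where all kept probes of the low-GC bin had -0.01. By signal level, members of low, middle and high mean intensity had 0.06, 0.26 and 0.37 in deleted tumour 2. All kept probes had 0 in each of these bins. Brighter members thus departed further from the probe median than dim ones. The same order held for the negative values of deleted tumour 3, with -0.003, -0.01 and -0.22. Deleted tumour 4 had -0.04, -0.08 and -0.25 in the same bins.

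**Figure D3:**
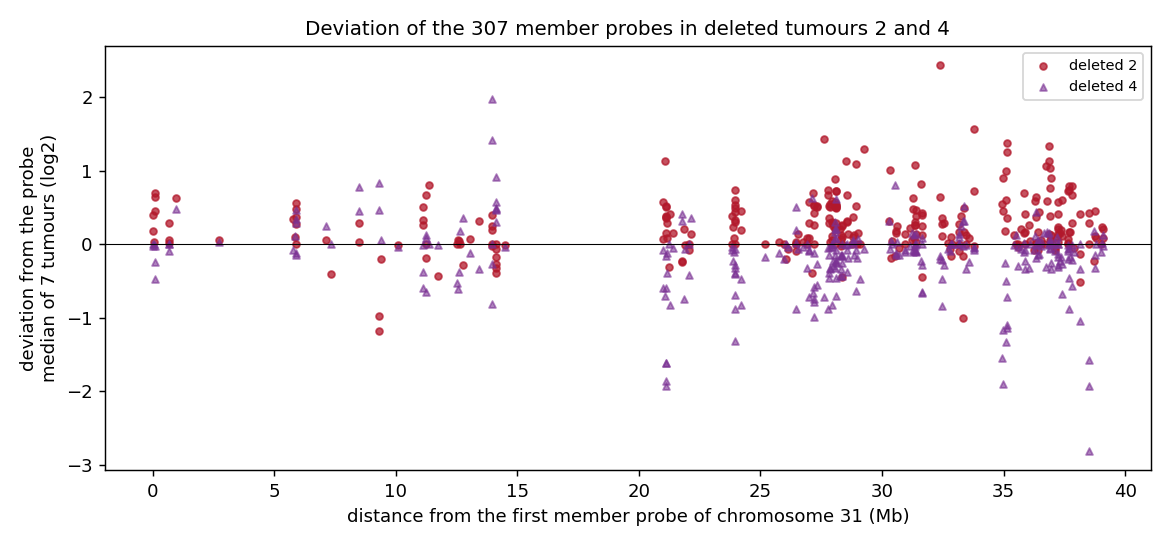
Deviation of each of the 307 member probes from its median over the 7 tumours (log2, vertical axis) against distance from the first member probe of the chromosome (Mb, horizontal axis), for deleted tumour 2 (red circles) and deleted tumour 4 (purple triangles). The highest point of deleted tumour 2 is a *KCNJ15* probe at 2.44, and the brightest *COL6A1* probe lies at -2.81 in deleted tumour 4.

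Counted by gene, 94 of the 118 named genes lay above their median in deleted tumour 2, 14 below it and 10 at it, and 49 (41.5%) were highest there. The largest gaps to the next tumour were in *KCNJ15*, an inward rectifier potassium channel, in *RRP1B*, which acts in ribosome assembly, and in *RUNX1*, a transcription factor of blood and bone. Below, values of single tumours stand in the order of their numbers, 4 deleted tumours first and then 3 wild-type tumours. *KCNJ15* read, as log2 intensity, 8.01, 9.36, 6.92 and 6.76 in the deleted and 6.76, 6.66 and 6.93 in the wild-type tumours. Deleted tumour 2 thus lay 1.35 above the next tumour, deleted tumour 1, and the other 5 tumours lay close together. A second *KCNJ15* probe, above background on 4 arrays, was also highest in deleted tumour 2, with a deviation of 0.64.

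*RUNX1* read 7.45, 8.72, 7.83 and 7.37 in the deleted and 7.19, 7.43 and 7.22 in the wild-type tumours. It stood 0.89 above the next tumour in deleted tumour 2. *RRP1B* read 9.98, 11.63, 10.51 and 10.49 in the deleted and 10.36, 10.62 and 10.45 in the wild-type tumours. *RRP1*, its relative, was highest in deleted tumour 2 with a deviation of 0.91, and *PWP2*, a part of the small-subunit processome, with 0.57. *URB1*, another ribosome assembly gene, was highest there by less, with a deviation of 0.29 and a gap of 0.17 to the next tumour. Also highest there were *CBR1*, a carbonyl reductase, with 1.01, *GART*, an enzyme of purine synthesis, with 0.89, and *CRYZL1*, a quinone oxidoreductase-like protein, with 0.72. Some genes ran the other way: *HMGN1*, a nucleosome-binding protein, was lowest in deleted tumour 2 at its brighter probe, with a deviation of -1.01, and *ROBO2*, a guidance receptor, was also lowest there, reading 7.02 against 7.22 to 8.77 in the other tumours.

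By role, the share of genes above their median in deleted tumour 2 was not the same in every list. It was 9 of 9 in RNA processing and ribosome assembly, with a list median of 0.50, and 9 of 9 in protein folding and turnover, with 0.34. It was 6 of 6 among interferon receptors and response genes, with 0.59, and 8 of 10 in metabolism and transport, with 0.51. It was 7 of 8 in mitochondria and redox, with 0.32, and 9 of 11 in chromatin and chromosome maintenance, with 0.16. Signalling had 5 of 9, with 0.03, transcription factors 6 of 9, with 0.13, matrix and adhesion 6 of 10, with 0.17, and channels and nerve genes 4 of 5, with 0.13. The leukocyte list of the chromosome had 1 kept gene of 5, *SAMSN1*, an adaptor of B cells, at 0.81. These lists were not tested against one another.

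The second question was whether the chromosome differed with *DLG2* status. Each probe was compared between the 4 deleted and the 3 wild-type tumours by limma over all 32309 kept probes, and called where the unadjusted p was below 0.05 and the Benjamini-Hochberg adjusted p below 0.1. No member was called, and no probe of the whole array was (0%). At the unadjusted threshold alone, 13 of 307 members (4.23%) passed, where 7.27% of all kept probes did. Of these, 4 were higher in the deleted tumours, against 3.1% of all probes, and 9 were lower, against 4.18%. The groups did not overlap for 18 members (5.86%), 8 higher and 10 lower, where 8.15% of all kept probes had groups that did not overlap. These shares are below the background. The methods' t-test with Benjamini-Hochberg adjustment called none either, with 15 members at an unadjusted p below 0.05. The paper reports differentially expressed probes between these groups after its own normalization and batch correction, which that test did not repeat. When wild-type tumour 1 was left out the 13 members became 5, and they became 7 on leaving out wild-type tumour 2 and 23 on leaving out wild-type tumour 3. They were 5 of 118 when 1 probe per gene was counted. Only 2 of the 39 chromosomes had a smaller share at the unadjusted threshold.

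The median difference over the members, deleted minus wild type, was 0.03 on the log2 scale, with quartiles of -0.10 and 0.13. Over all kept probes it was 0.004, with quartiles of -0.14 and 0.14. The difference was above 0 for 175 members and below 0 for 132. Without deleted tumour 2 the median over the members became -0.04, below 0. On the 1 slide that held both groups, 2 deleted tumours and 1 wild-type tumour, the median was 0.05, against 0.02 over all probes. For the arrays timed before noon at feature extraction, with 3 deleted tumours and 1 wild-type tumour, it was -6.67e-05, against 0.02 over all probes. For those timed from noon on, with 1 deleted and 2 wild-type tumours, it was 0.07, against -0.02.

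By window, the median probe difference ranged from -0.12 at 20 to 25 Mb to 0.14 at 5 to 10 Mb. The first of these had 3 of 17 probes above 0 and the second 7 of 8. Between 15 and 20 Mb, 5 of the 19 members passed the unadjusted threshold, all lower in the deleted tumours. They stood at *CXADR* and at unnamed sites. Of all kept probes, 7.27% passed that threshold, 4.18% being lower. This window was not tested against the others. The members that passed the threshold elsewhere numbered 4 higher and 4 lower. In the 5 to 10 Mb window the tumour medians of the groups did not overlap but nearly met. Deleted tumour 1 stood at 0 and wild-type tumour 1 at -0.006, closer than the 0.08 between the middle pair of overlapping members. The mean was 0.10 ± 0.15 (SD, n = 4) in the deleted and -0.04 ± 0.05 (SD, n = 3) in the wild-type tumours. That window holds 1 named gene, *GBE1*, with 4 of the 8 probes. How many windows of the genome had groups that did not overlap was not counted.

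Among the 118 named genes, 6 (5.08%) had groups that did not overlap, below the 8.15% of all kept probes, and they are given as a description. *BRWD1*, a bromodomain protein, had the smallest p. It read 9.10, 9.24, 8.85 and 9.09 in the deleted and 8.51, 8.58 and 8.70 in the wild-type tumours. Every deleted tumour lay above every wild-type tumour. *BRWD1* differed by 0.47 (SE 0.12, limma adjusted p = 0.500), and it fell to 0.14 relative to all probes with normexp and 75th percentile scaling. The other *BRWD1* probe, at 36282922 to 36282981, had a difference of 0.12 and overlapping groups.

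*CBR3*, a carbonyl reductase next to *CBR1*, read 8.07, 7.84, 7.79 and 7.79 in the deleted and 7.47, 7.64 and 7.49 in the wild-type tumours. The groups differed by 0.34 (SE 0.11, limma adjusted p = 0.586), and the gap between the groups was smaller than the range within either. Within the slide that held both groups it was 0.17. *GBE1*, the glycogen branching enzyme, read 8.47, 9.03, 8.52 and 8.81 in the deleted and 8.35, 8.33 and 8.27 in the wild-type tumours. Its difference was 0.39 (SE 0.15, limma adjusted p = 0.668). All 4 *GBE1* probes had a difference above 0, from 0.10 to 0.39, and 3 of the 4 had groups that did not overlap.

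The other 3 genes with separate groups were dim, and their values depended on the scaling. *C2CD2*, a C2 domain protein, differed by 0.19, *PDE9A*, a cyclic GMP phosphodiesterase, by -0.13 and *N6AMT1*, a methyltransferase, by -0.09, with limma adjusted p of 0.778, 0.808 and 0.881. All 3 read between 6.70 and 7.16 in every tumour, near the level of the dimmest members. With processed intensity, quantile and 75th percentile scaling in turn, the differences relative to all probes were 0.78 and 0.65 for *C2CD2*, -0.50 and -0.63 for *PDE9A* and -0.29 and -0.34 for *N6AMT1*. With normexp and 75th percentile scaling they were 0.53, 0.25 and 0.14, so that *PDE9A* and *N6AMT1* turned sign. *CXADR*, a tight junction protein that serves as a virus receptor, had the most negative difference of any named gene. Its brighter probe read 8.74, 8.94, 8.07 and 7.93 in the deleted and 9.93, 9.65 and 8.70 in the wild-type tumours, and the groups overlapped. This probe differed by -1.01 (SE 0.37, limma adjusted p = 0.649). The *CXADR* probe shown above differed by -0.58, and its groups did not overlap, with 6.66 to 6.94 in the deleted and 7.04 to 7.56 in the wild-type tumours.

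**Figure D4:**
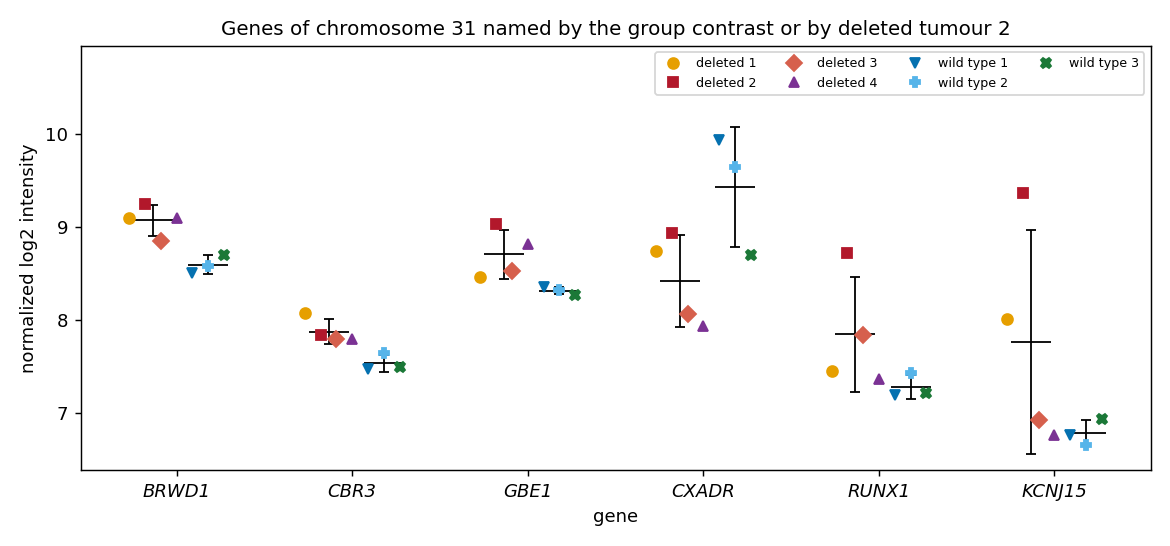
Normalized log2 intensity (vertical axis) of 6 genes of chromosome 31 (horizontal axis) in each of the 7 tumours, 1 probe per gene, with the mean and SD of the 4 deleted and the 3 wild-type tumours as black lines. *BRWD1*, *CBR3* and *GBE1* have deleted tumours above all wild-type tumours, *CXADR* has overlapping groups with a lower deleted mean, and in *RUNX1* and *KCNJ15* deleted tumour 2 stands highest, at 8.72 and 9.36.

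No role list had a called gene in either direction. At the unadjusted threshold 4 genes of the lists passed: *BRWD1* and *MIS18A*, a centromere protein, in chromatin and chromosome maintenance, *CBR3* in mitochondria and redox, and *CXADR* in matrix and adhesion. The list medians of the difference ran from -0.07 in RNA processing and ribosome assembly to 0.13 in matrix and adhesion among lists with 5 or more kept genes, against 0.004 over all probes. With normexp and 75th percentile scaling the medians relative to all probes were -0.41 in matrix and adhesion (3 of 10 genes above 0), -0.58 in mitochondria and redox (1 of 8), -0.68 in RNA processing and ribosome assembly (1 of 9) and -0.64 in protein folding and turnover (1 of 9), so no direction is given for these lists. The 9 transcription factor genes all had a difference above 0, from 0.02 to 0.56, and none passed the unadjusted threshold, while 5 of 9 lay above the median of all probes with normexp and 75th percentile scaling and 7 of 9 with processed intensity and that scaling. *RUNX1* had the highest of these (SE 0.33, limma adjusted p = 0.787), which became 0.27 without deleted tumour 2. *AIRE*, known for self-antigen expression in the thymus, had a difference of 0.37, which became -0.24 relative to all probes with normexp and 75th percentile scaling.

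The interferon genes varied more between tumours than between groups. *MX1*, an interferon-induced GTPase with antiviral activity, read 10.23, 13.18, 12.53 and 10.83 in the deleted and 11.93, 12.61 and 10.50 in the wild-type tumours. *MX2*, its neighbour, read 7.63, 9.75, 10.31 and 7.43 in the deleted and 8.76, 9.94 and 7.95 in the wild-type tumours. Both genes were lowest in deleted tumours 1 and 4 and wild-type tumour 3, and highest in deleted tumours 2 and 3 and wild-type tumour 2. The 3 tumours with the highest values were the 3 arrays of 1 slide, and each of the other 4 tumours was alone on its slide, so tumour and slide cannot be told apart here. Their group differences were 0.01 (SE 0.84) for *MX1* and -0.11 (SE 0.85) for *MX2*, with limma adjusted p of 0.999 and 0.991.

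The receptor chains varied less. *IFNAR2*, a chain of the type I interferon receptor, read 7.45, 7.71, 7.44 and 7.00 in the deleted and 6.99, 6.99 and 7.05 in the wild-type tumours, a difference of 0.39 (SE 0.17, limma adjusted p = 0.688). Deleted tumours 1 to 3 lay above the wild-type tumours and deleted tumour 4 among them. *IFNGR2*, a chain of the interferon gamma receptor, ran from 10.68 to 12.07 and differed by 0.31, *IFNAR1*, the other type I chain, by 0.12 and *IL10RB*, a chain shared by several interleukin receptors, by -0.15. The 6 leukocyte genes with a kept probe had median deviations of 0.79 in deleted tumour 3, 0.15 in wild-type tumour 2, 0.03 in deleted tumour 2 and 0.02 in deleted tumour 1, and -0.41 in deleted tumour 4 and -0.21 in wild-type tumours 1 and 3. The part of these leukocyte genes in the *MX* values was not tested.

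**Figure D5:**
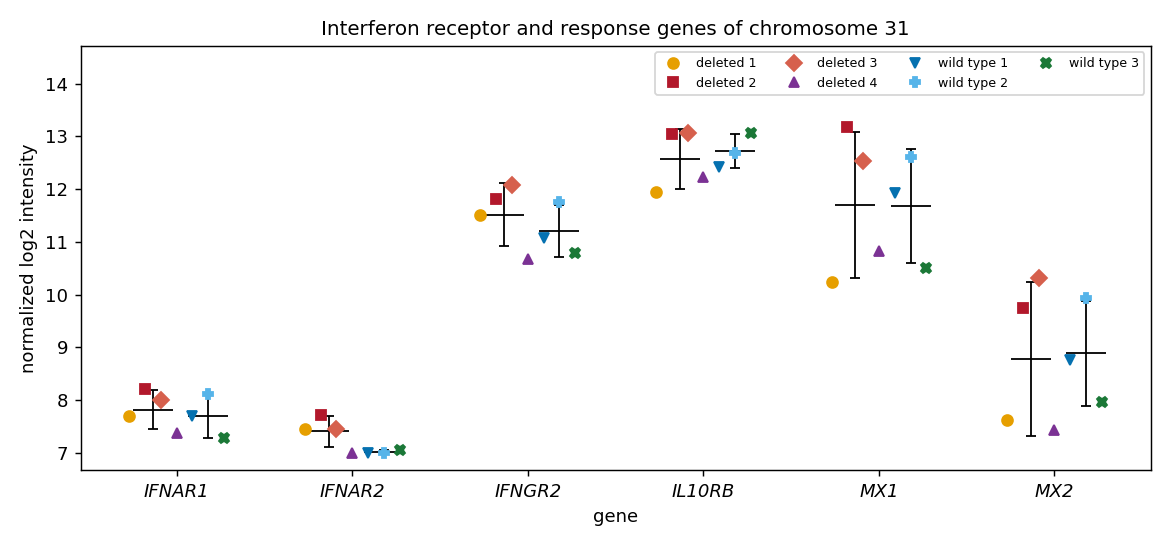
Normalized log2 intensity (vertical axis) of 6 interferon receptor and response genes of chromosome 31 (horizontal axis) in each of the 7 tumours, 1 probe per gene, with the mean and SD of the 4 deleted and the 3 wild-type tumours as black lines. *MX1* spans 10.23 to 13.18 and *MX2* 7.43 to 10.31 with group means that nearly coincide, while *IFNAR2* is higher in 3 of the 4 deleted tumours.

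Of the 10 matrix and adhesion genes with a kept probe, 6 had deleted tumour 4 and wild-type tumour 3 as their lowest pair: *COL6A1*, *BACE2*, *JAM2*, *APP*, *COL18A1* and *ADAMTS1*. The other 4 were not: *CYYR1*, a small membrane protein, was highest in deleted tumour 4, *ADAMTS5*, an aggrecan-cleaving protease, was lowest in deleted tumour 3, *CXADR* had deleted tumours 3 and 4 lowest, and *CLDN14*, a tight junction claudin, was lowest in wild-type tumour 2. The same pair was lowest in 3 of 9 transcription factor genes, 2 of 6 interferon genes and at most 1 gene of each other list. Its share over all kept probes was not counted. *COL6A1*, a chain of the pericellular collagen VI, read 13.83, 14.12, 14.44 and 11.02 in the deleted and 13.67, 14.01 and 11.95 in the wild-type tumours. Deleted tumour 4 and wild-type tumour 3 lay well below the rest, and each of the 3 *COL6A1* probes put the same pair lowest. *BACE2*, a membrane protease, read 10.76, 11.16, 10.00 and 8.81 in the deleted and 10.79, 10.70 and 8.06 in the wild-type tumours, with the same pair lowest.

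*JAM2* read 10.60, 11.13, 9.75 and 8.98 in the deleted and 11.80, 11.62 and 8.74 in the wild-type tumours. Its 5 probes all placed deleted tumour 4 and wild-type tumour 3 lowest, and the group difference ran from -0.68 to -0.12 over them. *APP*, the amyloid precursor protein and a neighbour of *JAM2*, was lowest in the same pair, at 10.52 and 10.91, and highest in wild-type tumours 1 and 2, at 12.33 and 12.39. The group differences of *COL6A1* (0.14, SE 0.92) and *JAM2* (-0.60, SE 0.86) were smaller than their standard errors. Single tumours moved both: relative to all probes, *JAM2* differed by -1.60 without wild-type tumour 3 and by -0.07 without wild-type tumour 1, and *COL6A1* by between -0.50 and 0.92. The matrix and adhesion list had a median deviation of -0.82 in deleted tumour 4 and -0.31 in wild-type tumour 3. Among cell type lists, adipocyte genes had a median deviation of 3.65 in deleted tumour 4 against 0.17 in wild-type tumour 3, and osteoclast genes -1.08 against 2.99. In the same order, osteoblast genes had 0.20 and 1.28, cartilage genes -0.41 and -0.39 and leukocyte genes -0.41 and -0.21. Endothelial genes had 0.37 and 0, skeletal muscle genes 0.03 and -0.05 and plasma cell genes 0 and -0.01. The part of these lists in the values above was not tested.

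Other named genes had their extremes in different tumours. *BTG3*, an antiproliferative protein, read 11.99, 11.88, 10.70 and 13.05 in the deleted and 11.35, 10.95 and 11.63 in the wild-type tumours, with deleted tumour 4 highest and deleted tumour 3 lowest. *COL18A1*, the source of endostatin, was highest in deleted tumour 3 at 14.32 and lowest in deleted tumour 4 at 11.48. *RCAN1*, a calcineurin inhibitor, was high in deleted tumours 1 and 2 and wild-type tumour 3, at 11.62, 11.94 and 11.64, and lay between 10.21 and 10.85 in the other tumours. *ADAMTS1*, an extracellular protease, ran from 7.59 in wild-type tumour 3 to 9.45 in deleted tumour 1. *SAMSN1* was highest in deleted tumours 2 and 3 and wild-type tumour 2, the 3 arrays of the shared slide, at 8.25, 8.09 and 7.82, and ran from 7.05 to 7.43 in the rest. The groups overlapped in every one of these genes.

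The rest of the named genes also overlapped between the groups. Below 0 lay *RBM11*, a splicing regulator (-0.63), *GCFC1* (-0.60), *HMGN1* (-0.56) and *ROBO2* (-0.75). So did *CCT8*, a chaperonin subunit (-0.31), *DYRK1A*, a kinase (-0.28), *SYNJ1*, a synaptic phosphatase (-0.23) and *AGPAT3*, an enzyme of phospholipid synthesis (-0.23). Above 0 lay *HSPA13*, a microsomal chaperone (0.48), *SLC5A3*, a myo-inositol transporter (0.27) and *MRPS6*, a mitochondrial ribosomal protein (0.17). Their limma adjusted p lay between 0.757 and 0.958. Leaving out 1 tumour moved many of these by over 1.5 times: *CCT8* ran from -0.56 to -0.00809, *DYRK1A* from -0.51 to -0.11, *SYNJ1* from -0.41 to -0.10, *RBM11* from -1.02 to -0.37, *HSPA13* from 0.22 to 0.65 and *SLC5A3* from 0.06 to 0.58. *HMGN1* had both probes below 0, at -0.56 and -0.34, with deleted tumour 2 lowest at the first and deleted tumour 3 at the second.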

How the data were processed

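RNA of 7 tumours was measured on 1-colour Agilent canine arrays read with Agilent Feature Extraction 10.7.3.1, per the labels. The authors deposited unnormalized scanner files, which hold spot intensity and local background as intensity values and marks for spots well above background. Per the methods, the study normalized by a robust multi-array average and corrected for a batch that is not named in the sources used here.

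Control spots and 144 outlier values were left out, the mean intensity was corrected by normexp with an offset of 50, and arrays were quantile normalized on the log2 scale with limma 3.58.1 in R 4.3.3. Probes well above background on 3 or more arrays were kept. All 32309 were fitted with lmFit and eBayes, deleted against wild type, with Benjamini-Hochberg adjustment over all of them. The test was run on simulated data, where 45.0% of 200 probes changed by 1 log2 unit and 81.0% of those changed by 2 were recovered in the deleted against wild-type comparison of 32231 probes. Each tumour gave 1 array, so p-values measure the spread between these tumours, technical spread included. Wild-type tumours 1 and 2 correlated at 0.987, above every other pair, so these p-values may rest on too small a wild-type spread.

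Gene symbols came from the files for 154 members, from the files' descriptions for 29 and from RefSeq gene IDs (assembly UU_Cfam_GSD_1.0, names only) for 17. Genes named were those with separate groups, up to 10 by smallest p, the most variable gene of each 5 Mb window with 5 or more genes, and the 2 largest differences of each role list, taking the brightest probe of each gene. Genes high or low in deleted tumour 2, the other probes of a gene, and *MX1*, *BACE2*, *IFNAR1*, *IL10RB*, *COL18A1*, *CYYR1*, *ADAMTS5*, *CLDN14* and *MIS18A* were chosen after their values were seen. The members and lists were chosen with earlier results of these data known. Alternatives covered background, scaling, filter, slide, extraction session (extracted before noon or from noon on), sex label and each tumour left out.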

Additional observations from a re-analysis of the deposited data

Results flagged for a closer look

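Of 41 sets of 4 deleted tumours examined (the chromosome median, 9 window medians and 31 named genes), 1 held a tumour far from the others by Dixon's criterion, which chance alone meets in about 1 of 20 groups. *CBR3* read 8.069 in deleted tumour 1, against 7.79 to 7.84 in the other deleted tumours. The gap was 0.833 of the range of the 4 values, just past the critical value. Without that tumour the *CBR3* difference from the wild-type tumours, relative to all probes, was 0.27.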

How the results depend on the processing

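No member was called under any of the alternatives that kept the adjusted threshold, and 13 passed the unadjusted threshold alone. That number was 8 with normexp and 75th percentile scaling, 8 with slide as a block, 20 with no filter and 5 with 1 probe per gene, and 5 to 23 when each tumour was left out. The median difference relative to all probes was 0.02 and stayed between -0.05 and 0.07 with each tumour left out. Normexp with 75th percentile scaling moved the median difference of all probes to 0.32, so values there are relative to it. The median deviation of deleted tumour 2 was 0.39 with processed intensity and quantile normalization, 0.40 with processed intensity and 75th percentile scaling, and 0.0873 with no filter. Under those 2 settings of processed intensity, deleted tumour 3 had -0.15 and -0.18 and deleted tumour 4 had -0.21 and -0.29. With normexp and 75th percentile scaling deleted tumour 1 had -0.12. The cause was not tested. Left-out tumours moved deleted tumour 2 between 0.16 and 0.21. Deleted tumour 2 was highest in 55.6% to 77.8% of the windows under all settings of 5 Mb windows and in 80.0% of 10 Mb windows. After seeing the data, deviations from the probe mean (0.20 in deleted tumour 2) and wild-type tumours 1 and 2 counted as 1 (0.19) were added.

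Of 31 named genes, 10 turned sign relative to all probes with normexp and 75th percentile scaling: *PDE9A* (0.25), *N6AMT1* (0.14), *BTG3* (-0.0326), *RCAN1* (-0.51), *COL6A1* (-0.50), *IFNGR2* (-0.31), *AIRE* (-0.24), *HSPA13* (-0.13), *MRPS6* (-0.34) and *SLC5A3* (-0.15). Leaving out a tumour turned 5, with *RCAN1* between -0.16 and 0.43, *MX2* between -0.62 and 0.43, *COL6A1* between -0.50 and 0.92, *MRPS6* between -0.0898 and 0.61 and *AGPAT3* between -0.57 and 0.0268. It moved another 16 by over 1.5 times with no change of sign and left 10 within that, among them the 6 with separate groups. Those 6 were chosen for groups that did not overlap, so leaving out 1 tumour could not reverse the order of their group means. No named gene was called under any of these. No paired analysis was possible because replicate numbers only follow the order of the samples and the tumours came from different dogs. Dim probes near background limit what small differences can show.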
